A study of Mus musculus with 7 samples.

Results

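The 36 aminoacyl-tRNA synthetase genes of this mouse retina data set were taken from a list of gene names and examined in control and Setd1a-knockdown cells. They are 36 of 16143 genes with a summed level, 20 of them cytosolic and 16 mitochondrial, the latter with names that end in 2. The members were chosen by family name, and the family was selected on its TPM in this same comparison, which was known beforehand, so its control and knockdown values are given as a description, with no test of their own. Where a member is said to have passed, or not, the threshold of a fit over all genes, that too describes the values behind the choice of the family and supports nothing.

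The data are transcript levels in embryonic retina of ICR mice, an outbred stock, cultured as explants for 2 days from embryonic day 17.5, which the series' design text gives as day 17. All explants received an EGFP plasmid by electroporation, together with either a control plasmid (n = 3 libraries) or a plasmid named shKmt2f (n = 4 libraries), which expresses a hairpin RNA to knock down Setd1a, also called Kmt2f, a histone H3 lysine 4 methyltransferase gene. EGFP-positive cells were sorted, so the libraries hold only cells that took up plasmid. cDNA was made with SMART-Seq v4 from 1 ng of total RNA. The number of hairpins and the control insert are not given in the sources used here. Whether replicate libraries are from different animals or explants is not stated, so their spread may be partly technical, and in the shKmt2f group wholly so. Y chromosome transcripts, given below, set control replicate 3 apart from control replicates 1 and 2. Levels are in TPM, a share of a library's transcripts that is scaled for transcript length, summed over the transcripts of a gene. A fold change is the difference of group means of log2(TPM + 1), shKmt2f minus control, and each ± is an SD.

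Aminoacyl-tRNA synthetases join each amino acid to its transfer RNA, the step that sets which amino acid a codon is read as. Cytosolic and mitochondrial protein synthesis mostly use separate enzymes from separate nuclear genes, and the exceptions are lysine and glycine, for which Kars and Gars each encode both forms, and mitochondrial glutamine, which is made on a transfer RNA first charged with glutamate by Ears2. Several cytosolic enzymes sit together with the scaffold proteins Aimp1, Aimp2 and Eef1e1 in a multisynthetase complex, and many cytosolic synthetase genes are known targets of ATF4, the transcription factor of the amino acid response.

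Promoter sequence is shown for 4 cytosolic members that hold a motif tied to that response. RefSeq (GRCm38.p6) gave 27 windows of 300 bases, 250 before and 50 after a start listed there, for 26 of the 36 genes (Aars2 has 2). The core of the element bound by ATF4 with C/EBP proteins, TGATGNAA, was searched on both strands together with the E-box CACGTG, which reads the same on both, and no match of either motif overlapped the other. TGATGNAA was found in 5 of the 27 windows, or 18.5% (exact Clopper-Pearson interval 6.3 to 38.1%), against 1304 of all 32851 promoter windows, or 3.97%. These were the windows of Aars, Gars, Iars, Tars and Yars, so 5 of 12 cytosolic windows and 0 of 15 mitochondrial windows (exact interval up to 21.8%). The windows cover only 12 of the 20 cytosolic genes and 14 of the 16 mitochondrial ones. No window was found for Cars, Hars, Lars, Mars, Nars, Rars, Vars, Wars, Hars2 and Pars2, so these were not searched. CACGTG was found in 5 windows too, those of Aars, Ears2, Farsb, Iars and Tars, against 7.15% of all windows. That share lies inside the exact interval of 6.3 to 38.1%. With only the 250 bases before the start, each motif was left in 3 of the 27 windows, or 11.1% (exact interval 2.35 to 29.2%). The shares of all windows were then 3.45% and 6.02%, both inside that interval. The windows below read 5′ to 3′ on the strand of the gene, with each motif or its reverse complement in capitals.
Yars (chr4:129189653-129189952, plus strand): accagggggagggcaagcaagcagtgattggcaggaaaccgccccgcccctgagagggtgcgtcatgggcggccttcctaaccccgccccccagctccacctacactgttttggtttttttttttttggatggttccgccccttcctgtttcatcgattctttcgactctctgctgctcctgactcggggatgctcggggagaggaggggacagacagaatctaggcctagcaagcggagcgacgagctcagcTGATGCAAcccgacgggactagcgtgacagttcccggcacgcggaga
Iars (chr13:49681880-49682179, plus strand): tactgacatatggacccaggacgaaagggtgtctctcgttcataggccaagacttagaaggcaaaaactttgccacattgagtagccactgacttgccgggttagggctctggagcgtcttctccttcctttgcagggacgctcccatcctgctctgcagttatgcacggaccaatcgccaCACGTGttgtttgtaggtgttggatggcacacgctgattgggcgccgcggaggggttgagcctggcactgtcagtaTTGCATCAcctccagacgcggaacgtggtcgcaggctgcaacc
Tars (chr15:11399609-11399908, minus strand): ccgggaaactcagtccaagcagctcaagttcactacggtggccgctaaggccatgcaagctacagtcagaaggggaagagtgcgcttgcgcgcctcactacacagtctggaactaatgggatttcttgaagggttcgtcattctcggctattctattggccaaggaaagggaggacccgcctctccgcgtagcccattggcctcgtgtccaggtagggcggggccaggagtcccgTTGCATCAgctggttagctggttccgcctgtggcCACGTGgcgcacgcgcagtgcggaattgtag
Aars (chr8:111033592-111033891, plus strand): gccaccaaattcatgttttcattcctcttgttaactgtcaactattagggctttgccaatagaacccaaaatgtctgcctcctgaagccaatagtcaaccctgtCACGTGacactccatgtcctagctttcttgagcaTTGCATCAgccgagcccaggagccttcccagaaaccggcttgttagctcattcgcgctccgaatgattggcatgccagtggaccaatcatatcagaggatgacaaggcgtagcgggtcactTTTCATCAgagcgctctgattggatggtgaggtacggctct
Positions are counted from the RefSeq start of each window, which can differ from the start of the gene in the GENCODE annotation. In GENCODE Yars begins at base 129189760, inside its window and before the motif, and Aars (chr8:111033144-111057664) spans its whole window. In Yars the motif lies on the gene's strand, from base 4 to base 11 after the RefSeq start, while in the other 3 it lies on the opposite strand. In Iars it runs from 8 to 15 bases after the start and in Tars from 15 to 8 bases before it. Aars holds it at 112 to 105 bases before the start and again, as TGATGAAA, at 10 to 17 bases after it. Of these 4 genes, Yars was lower in knockdown libraries, Iars and Tars were higher, and Aars overlapped between the groups. A match is a description of the letters and not a measured binding site.

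The targeted gene, the libraries and the cells were checked first. The longest listed Setd1a transcript, of 6487 bases, stood at 0.767, 0.959 and 0.764 TPM in control and at 0.407, 0.328, 0.374 and 0.432 TPM in shKmt2f libraries, 46.4% of control (exact permutation test, two-sided, p = 0.0286, the smallest that 35 splits allow). TPM totals lay between 991445 and 992309, and TPM keeps no depth, so the counting error behind each value is unknown. Transcripts of Y chromosome genes were not balanced: control replicates 1 and 2 held 1.78 and 2.24 TPM of Uty. The other 5 libraries, control replicate 3 among them, held 0.0197 to 0.0929 TPM. Control replicate 3 was therefore not drawn from the same set of animals as control replicates 1 and 2. No synthetase gene lies on a sex chromosome. Of 9 retinal progenitor markers 2 were lower (Hes5 and Ccnd1) and 0 higher, and their summed level was 957.9 to 1238 TPM in control and 771.3 to 870.1 TPM in shKmt2f libraries. Of the 5 photoreceptor precursor markers listed 3 were higher (Otx2, Prdm1 and Crx), with sums of 417.3 to 516.6 and 665.5 to 870.1 TPM, and of 4 tested ganglion cell markers all 4 were higher, with sums of 13.9 to 20.7 and 33.6 to 38.0 TPM, although the defining marker Pou4f2 was near 0 throughout. Of amacrine markers, 1 of 5 was higher. Over all genes tested 10.4% were called higher and 3.69% lower in the fit described below. The marker lists were chosen with earlier results of these data known. Among other cell types no erythroid marker was listed, the lens markers stayed below 1 TPM, the only microglial marker listed, C1qa, reached at most 1.54 TPM, and the endothelial genes Kdr and Cldn5 were present while Pecam1 and Tie1 were near 0. Of the 2 pigment epithelium markers listed, 1 stayed below 1 TPM. Their sums were 63.5 to 91.0 TPM in control and 70.8 to 114.4 TPM in shKmt2f libraries. In bulk samples such as these, fewer cells of a type and less RNA per cell cannot be told apart, and the part of cell makeup or sex in the values below was not tested.

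The synthetase family as a whole did not move in a single direction. Of the 36 genes 35 had at least 1 TPM in at least 3 libraries and entered limma's fit over 12456 genes (Benjamini-Hochberg adjustment, threshold 0.05), and Mars2 did not. In that fit 4 members passed, 2 higher (Eprs and Iars) and 2 lower (Yars and Sars2), while over all genes 1755 passed, or 14.1%, with 10.4% higher and 3.69% lower. Group ranges were apart for 7 members, 4 higher and 3 lower, against 28.9% of all genes (19.2% higher and 9.67% lower). Since the members were chosen with this comparison known, nothing is read from these shares. The median log2 fold change was -0.04 over the 35 members, with 15 above and 20 below 0, against 0.09 over all genes, of which 59.3% were above 0. Members of catalytic class I, whose fold binds ATP differently from that of class II, had a median of -0.06 over 17 genes and class II members -0.04 over 17 genes, Eprs belonging to both.

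**Figure D1:**
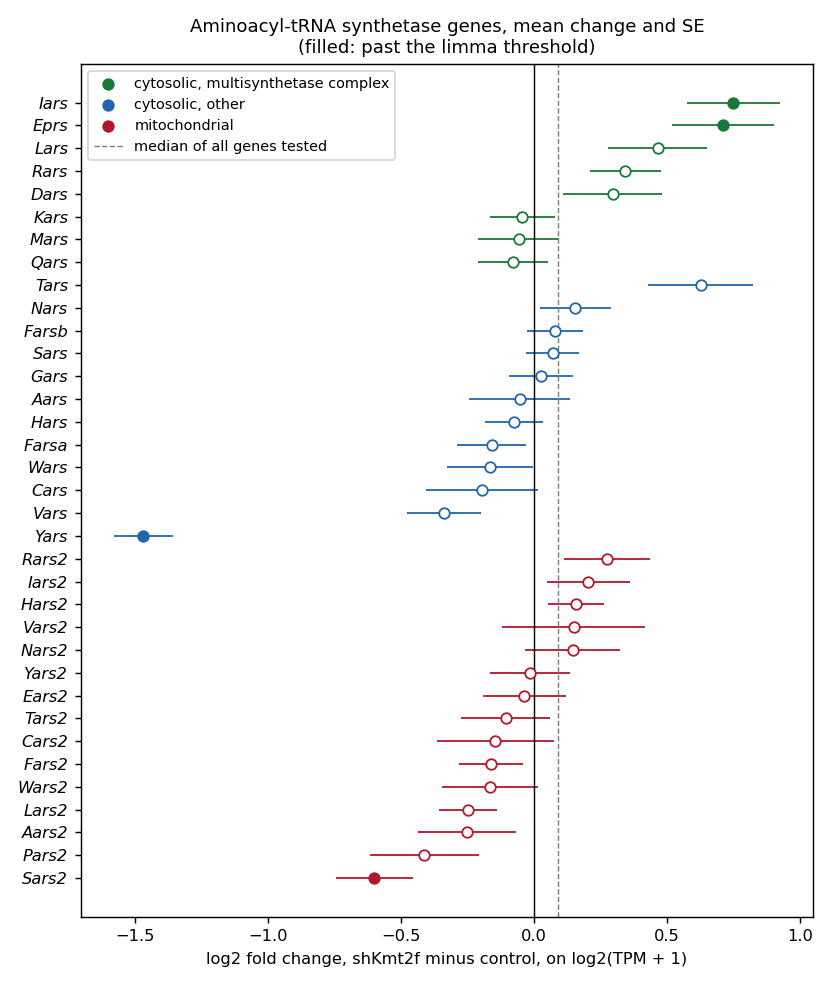
Log2 fold change (shKmt2f minus control, log2(TPM + 1) scale) of the 35 synthetase genes tested, with SE bars, grouped into complex members, other cytosolic genes and mitochondrial genes. Filled points passed the limma threshold, and Yars at -1.47 lies far below all others, which span -0.60 to 0.75.

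**Figure D2:**
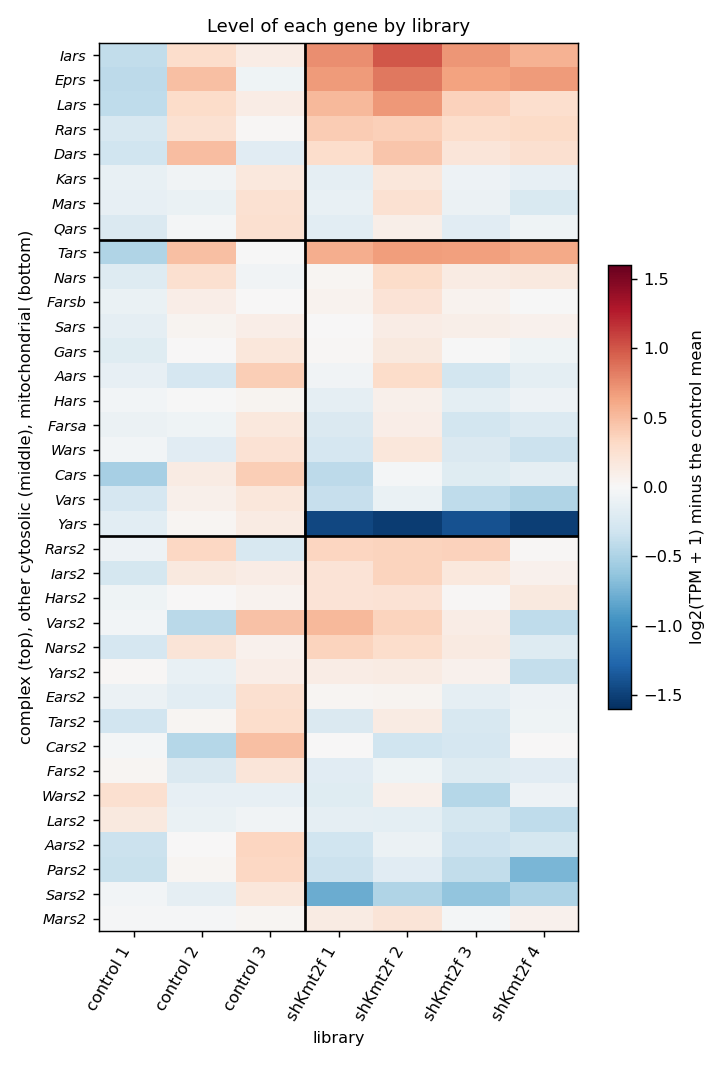
Level of each of the 36 genes in each of the 7 libraries, as log2(TPM + 1) minus the gene's control mean. Yars is dark blue in all 4 shKmt2f libraries. Eprs, Iars and Tars are red in those libraries, paler red in control replicate 2 and blue in control replicate 1.

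Of the 8 synthetases of the multisynthetase complex 2 passed the threshold and 3 had group ranges apart, against 14.1% and 28.9% of all genes. The 8 had a median log2 fold change of 0.32, with 5 genes above 0 and 3 below. That median did not keep its direction under a correction of each library on GC content, where it was -0.02, nor its size under a correction on GC content and length, where it was 0.05. It was 0.18 without control replicate 1, 0.50 without control replicate 2, 0.20 with median-ratio scaling and 0.21 when TPM was weighted by transcript length. The median over the 8 genes of the deviation from the control mean was -0.28, 0.26 and 0.12 in control replicates 1, 2 and 3 and 0.34, 0.41, 0.24 and 0.27 in the shKmt2f libraries, on the log2 scale, so control replicate 2 lay within the knockdown range. The 5 genes above 0 were those for isoleucine, glutamate and proline, leucine, arginine and aspartate, and those for lysine, methionine and glutamine lay just below 0.

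Iars encodes the isoleucine enzyme of the complex (chr13:49682100-49734267, plus strand). It stood at 50.9, 81.7 and 73.0 TPM in control and at 113.6, 134.7, 110.1 and 99.2 TPM in shKmt2f libraries. The groups did not overlap, and the lowest knockdown library stood above the highest control. The means were 68.5 ± 15.9 and 114.4 ± 14.8 TPM, 166.9% of control, with a log2 fold change of 0.75 (SE 0.17). Of its TPM 37.7% came from coding transcripts, whose sum went from 26.8 to 42.4 TPM, and 54.4% from a retained-intron transcript of 356 bases. A processed pseudogene, Gm4849, matches Iars at 96.0% identity over 1656 bases, but was listed at no more than 0.307 TPM.

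Eprs encodes the enzyme that charges both glutamate and proline (chr1:185363044-185428360, plus strand). Its levels were 39.8, 75.02 and 50.8 TPM in control and 86.2, 96.3, 83.7 and 86.1 TPM in shKmt2f libraries. Control replicate 2 came close to the knockdown range without reaching it, and the knockdown libraries lay close together. From 55.2 ± 18 TPM the mean went to 88.1 ± 5.61 TPM, 159.5% of control, with a log2 fold change of 0.71 (SE 0.19). The coding transcript of 4906 bases held 32.9% of the TPM and went from 18.1 to 29.0 TPM, with overlap between the groups.

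Rars, for arginine, stood at 29.6, 41.9 and 35.8 TPM in control and at 47.3, 46.4, 43.2 and 44.1 TPM in shKmt2f libraries. The groups did not overlap, but the gap between control replicate 2 and the lowest knockdown library was small. At 0.34 (SE 0.13) its log2 fold change missed the threshold. Lars, for leucine, had the lowest level of the cytosolic members, 15.0, 25.0 and 22.0 TPM in control and 29.4, 33.4, 26.5 and 24.7 TPM in shKmt2f libraries. Control replicate 2 lay just above the lowest knockdown library, and the log2 fold change was 0.46 (SE 0.19), also short of the threshold. Dars, for aspartate, had 69.2 ± 22.3 and 82.6 ± 6.11 TPM with overlap, and its direction turned with the correction on GC content (-0.26) and on GC content and length (-0.33, called lower by limma). Kars had 92.3 ± 10.2 and 89.5 ± 9.85 TPM, Mars, for methionine, 49.1 ± 7.50 and 47.2 ± 7.30 TPM, and Qars, for glutamine, 227.9 ± 38.8 and 214.2 ± 19.2 TPM. Their group means lay within 1 SD of each other. Mars overlaps Ddit3 on the opposite strand, and whether the counting used strand is not stated, so reads of such pairs may have been shared.

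The calls for Iars and Eprs were lost in most fits that left out 1 library. Control replicate 1 had the lowest level of Iars, Eprs, Lars, Rars and Dars among all 7 libraries. Without that library the log2 fold changes were 0.55 for Iars and 0.50 for Eprs, and neither passed. Both also fell short of the threshold when any other single library was left out, with the exception of control replicate 2, without which Dars, Rars and Tars passed as well as Eprs and Iars. Their fold changes were not always smaller in these fits. Without shKmt2f replicate 4 they were 0.81 for Iars and 0.72 for Eprs. Over all genes, the 1755 calls became 282 to 3024 when 1 library was left out.

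The other 12 cytosolic synthetases had a median log2 fold change of -0.06, with 5 genes above 0 and 7 below. Only Yars passed the threshold among them, and Yars and Tars had group ranges apart, against 14.1% and 28.9% of all genes. Without Yars the remaining 19 cytosolic genes of both kinds had a median of 0.03. The summed TPM of all 20 cytosolic genes was 1707 ± 233.1 in control and 1686 ± 151.6 in shKmt2f libraries, a difference well within the spread.

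Yars encodes the cytosolic tyrosine enzyme (chr4:129189760-129219607, plus strand). It stood at 81.7, 94.1 and 100.9 TPM in control and at 33.0, 31.3, 34.3 and 31.7 TPM in shKmt2f libraries. All 4 knockdown libraries were low and alike, and each was below even the lowest control library by more than the whole range of either group. The means were 92.2 ± 9.76 and 32.6 ± 1.36 TPM, 35.3% of control, with a log2 fold change of -1.47 (SE 0.11). That value was the 27th lowest of the 12456 genes tested and the lowest of the family. In control Yars was the sixth highest of the 20 cytosolic genes, and in shKmt2f libraries only Lars had a lower mean among them. The mitochondrial tyrosine gene Yars2 had 41.5 ± 3.38 and 41.4 ± 6.58 TPM, with overlap between the groups.

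Tars, for threonine, had the opposite pattern, with 36.0, 71.3 and 50.4 TPM in control and 76.1, 81.0, 80.4 and 77.5 TPM in shKmt2f libraries. The knockdown libraries were tightly grouped above a control group in which replicate 1 was low and replicate 2 high. The means were 52.6 ± 17.7 and 78.8 ± 2.35 TPM and the log2 fold change was 0.63 (SE 0.20), short of the threshold except without control replicate 2. Vars, for valine, was the highest of the cytosolic members, with 230.1, 292.4 and 313.4 TPM in control and 214.1, 257.0, 208.8 and 197.5 TPM in shKmt2f libraries. Control replicate 1 lay inside the knockdown range. Its log2 fold change was -0.34 (SE 0.14), which did not pass, but passed at -0.46 with median-ratio scaling and at -0.44 when TPM was weighted by transcript length.

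The remaining 9 genes of this group overlapped between control and knockdown. Aars, for alanine, had 109.8 ± 28.4 and 104.8 ± 18.9 TPM and Gars, for glycine, 62.3 ± 8.04 and 63.2 ± 4.35 TPM. A listed Aars transcript holds a whole 1326-base transcript of Exosc6 on the same strand at 100% identity, and since Exosc6 was not analysed here, the Aars level may include its reads. The phenylalanine enzyme is built of 2 kinds of subunit, and neither Farsa (101.4 ± 10.4 and 90.9 ± 12.4 TPM) nor Farsb (86.1 ± 6.62 and 91.0 ± 6.31 TPM) passed. Cars, for cysteine, had 78.9 ± 24.6 and 66.6 ± 7.38 TPM, its control libraries ranging from 52.2 to 100.6 TPM. Sars, for serine, had 83.1 ± 7.55 and 87.0 ± 2.67 TPM, Nars, for asparagine, 56.4 ± 9.56 and 62.5 ± 4.92 TPM, Wars, for tryptophan, 48.7 ± 7.53 and 43.4 ± 7.71 TPM, and Hars, for histidine, 37.9 ± 1.10 and 36.0 ± 2.96 TPM. Over the 17 cytosolic genes that did not pass, log2 fold changes lay between -0.34 and 0.63 with SEs of 0.10 to 0.21. Tars was among them at 0.63 with an SE of 0.20, so even changes of several SEs could go uncalled. Hars and Hars2 overlap on opposite strands, as do Farsb and Sgpp2.

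Of the 8 listed Yars transcripts 5 had a mean of at least 1 TPM, and all 5 were lower in shKmt2f libraries with group ranges apart. The same fit over 37024 transcripts called 828 of them, or 2.24%, and 294 lower, or 0.794%. It called 5 of 141 tested synthetase transcripts (195 listed), and these were the 5 of Yars. The only coding model, Yars-201, has 13 exons and stood at 13.9, 15.4 and 18.6 TPM in control and at 5.00, 5.69, 4.83 and 4.23 TPM in shKmt2f libraries. No knockdown library came near the control range, and the mean was 30.9% of control, 15.96 ± 2.42 against 4.94 ± 0.599 TPM. It held 17.3% of the Yars TPM in control and 15.2% in shKmt2f libraries, the rest being listed on shorter models without a full coding sequence.

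Yars-204, a processed transcript of 6 exons at the 3′ end, had the highest level, 20.1, 26.6 and 27.8 TPM in control and 7.53, 6.66, 9.08 and 8.36 TPM in shKmt2f libraries. Yars-205, a processed transcript of 5 internal exons, had 21.2, 19.0 and 19.8 TPM in control and 7.20, 5.82, 4.55 and 5.56 TPM in shKmt2f libraries. Yars-203, a model annotated for nonsense-mediated decay, had 11.1, 16.5 and 18.6 TPM in control and 5.51, 4.90, 5.91 and 4.26 TPM in shKmt2f libraries. These 3 kept 31.9%, 28.9% and 33.4% of the control mean, close to the coding model. Yars-202, a retained-intron model of the first 3 exons, had 12.6, 15.8 and 13.5 TPM in control and 6.47, 6.15, 9.24 and 7.55 TPM in shKmt2f libraries. At 52.6% of control it kept more than the other 4, its log2 fold change being -0.85 (SE 0.17) against -1.65 to -1.39 for them, and its share of the Yars TPM went from 15.2% to 22.6%. The 3 remaining retained-intron models, Yars-206, Yars-207 and Yars-208, had means below 1 TPM in both groups and overlapped. Models that share exons share reads, so their levels are not independent of each other.

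**Figure D3:**
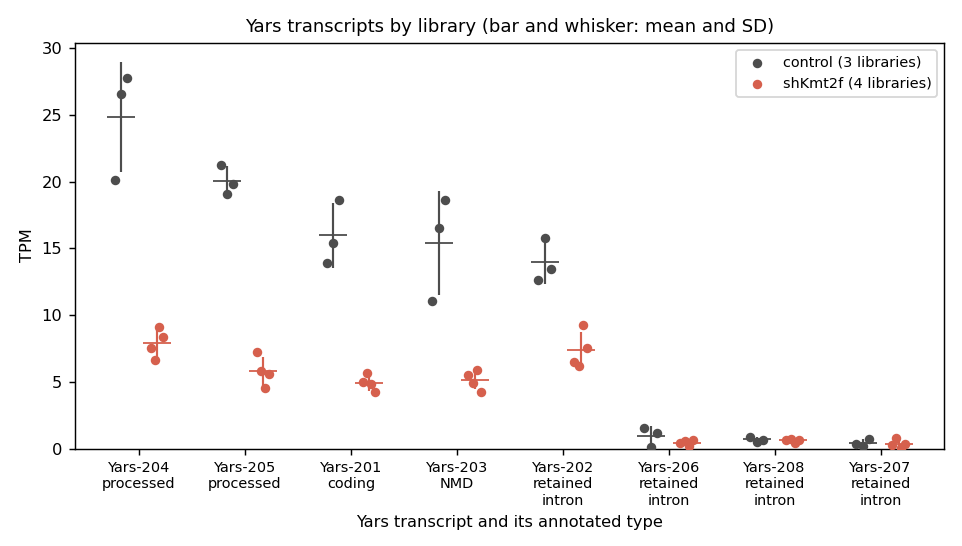
TPM of the 8 Yars transcripts in each control (3) and shKmt2f (4) library, with group mean and SD. The 5 models above 1 TPM are lower in every shKmt2f library than in any control library, and the other 3 lie near 0 in both groups.

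**Figure D4:**
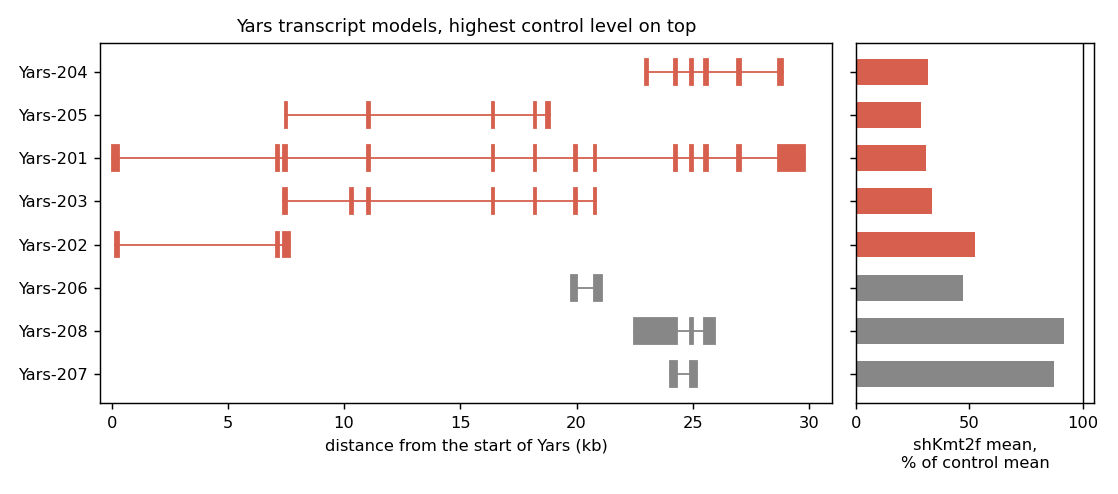
Exons of the 8 Yars models by distance from the start of the gene in kb, with the shKmt2f mean as a percentage of the control mean at the right. Models of the 5′ part, the middle and the 3′ end are all below control, from 28.9% for Yars-205 to 52.6% for Yars-202, and the grey models are the 3 below 1 TPM.

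For Yars-201 the authors' deposited table has an effect of -1.25 on the natural log scale and the third smallest q of 55404 transcripts. That deposited table of the authors has q under 0.05 for 3058 transcripts, or 5.52%, and for 12 of the 195 synthetase transcripts. Of these 12 in the authors' deposited table, 5 are Yars models, and the others belong to Eprs, Vars, Iars, Cars and Sars2. The authors' deposited table gives an effect of 0.34 for the Iars coding transcript and of -0.53 for that of Sars2, the same directions as the sums over each gene. These q-values and effects come from the same libraries and the same comparison as the values above, so they are no independent support.

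Of the genes beside Yars, S100pbp starts 33 bases from the GENCODE start of Yars on the opposite strand, inside the promoter window printed above. S100pbp had 6.07 ± 1.87 and 4.86 ± 1.38 TPM with overlapping groups. C77080, whose end overlaps that of Yars on the opposite strand, was listed at 0.505 ± 0.267 and 0.559 ± 0.108 TPM. Farther off, the chromatin gene Rbbp4 had 249.6 ± 24.0 and 246.8 ± 8.57 TPM.

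The 16 mitochondrial synthetases were lower in level than the cytosolic ones, with a median control mean of 17.5 TPM against 68.9 TPM. Of the 15 tested 1 passed, against 14.1% of all genes. The median log2 fold change of the 15 was -0.11, with 5 genes above 0 and 10 below. Group ranges were apart for 2 of the 16, both lower, against 28.9% of all genes. The summed TPM of the 16 was 723.5 ± 31.7 in control and 662.4 ± 52.3 in shKmt2f libraries, and more than any other gene Lars2 set it.

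Sars2 encodes the mitochondrial serine enzyme (chr7:28741992-28753871, plus strand). It stood at 17.4, 16.1 and 20.5 TPM in control and at 9.93, 12.5, 11.2 and 12.4 TPM in shKmt2f libraries. All knockdown libraries were below all controls. The means were 17.98 ± 2.26 and 11.5 ± 1.21 TPM, 64.0% of control, with a log2 fold change of -0.60 (SE 0.15). Its coding transcript held 93.5% of the TPM and went from 16.8 to 10.7 TPM. The gene fell short of the threshold when any library other than control replicate 2 was left out, with log2 fold changes between -0.67 and -0.51. In contrast with Sars2, its cytosolic counterpart Sars differed by less than 1 SD of its control libraries.

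Lars2, for mitochondrial leucine, had by far the highest level of the family, 418.4, 348.4 and 362.0 TPM in control and 338.4, 335.7, 309.4 and 282.6 TPM in shKmt2f libraries. The lowest control and the highest knockdown library were close, and the log2 fold change, -0.25 (SE 0.11), missed the threshold. Of that level 97.5% was listed on a transcript of 3756 bases annotated for nonsense-mediated decay, and the coding transcript, with 2.27%, stood at 8.46 and 7.27 TPM in the 2 groups. Mars2, for mitochondrial methionine, was the lowest, with 0.731, 0.726 and 0.795 TPM in control and 0.919, 1.03, 0.71 and 0.837 TPM in shKmt2f libraries. It overlapped between the groups and lay below the level needed for the fit.

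The other 13 mitochondrial genes overlapped between the groups. Rars2, for arginine, had the highest fold change among them, 57.3 ± 12.7 against 68.8 ± 7.62 TPM or 0.27 on the log2 scale (SE 0.16), and Pars2, for proline, the lowest, 7.53 ± 1.98 against 5.35 ± 0.970 TPM or -0.41 (SE 0.20). Fars2, for phenylalanine, had 67.2 ± 9.88 and 59.6 ± 2.59 TPM, Hars2, for histidine, 41.3 ± 1.77 and 46.2 ± 3.11 TPM, and Tars2, for threonine, 36.2 ± 7.44 and 33.2 ± 4.33 TPM. Aars2, Cars2, Ears2, Iars2, Nars2, Vars2 and Wars2 had means between 2.38 and 21.2 TPM in either group. Vars2 ranged widely, from 12.0 to 23.2 TPM within control and 12.2 to 23.9 TPM within shKmt2f libraries, and its coding transcript made up only 1.26% of its level. Iars2 overlaps Rab3gap2 and Vars2 overlaps Gm20483 on opposite strands.

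The fold change of the members went with the GC content of their transcripts. Over the 35 tested members Pearson's r was -0.53 and Spearman's rho -0.68, and over the 34 without Yars -0.65 and -0.71, beside -0.46 and -0.47 over 12453 genes. These are descriptions across genes that share the same 7 libraries. Over all genes in 5 equal bins of GC content the median log2 fold change went from 0.51 in the lowest bin to -0.08 in the highest, and Eprs, Iars, Tars and Rars have GC contents of 46.5%, 49.0%, 48.5% and 44.1%, against 57.8% for Vars and 59.8% for Sars2. Yars, at 52.7%, lies far below the genes of similar GC content, whose bin had a median of -0.05, Iars, at 0.75, lies above its bin's median of 0.08, and Sars2, at -0.60, lies below its bin's median of -0.08. With each library corrected on GC content the log2 fold changes were 0.49 for Eprs, which no longer passed, 0.62 for Iars, which still passed, and -0.04 for Rars, a change of sign. Libraries differed in the slope of a gene's level on GC content, which was 0.025 and 0.041 on log2 per percent in control replicates 1 and 3, against -0.0044 in control replicate 2 and between -0.018 and -0.012 in the shKmt2f libraries. The slope on transcript length was -0.13 in control replicate 1, on log2 per doubling of length, and between -0.02 and 0.11 in the other 6 libraries.

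**Figure D5:**
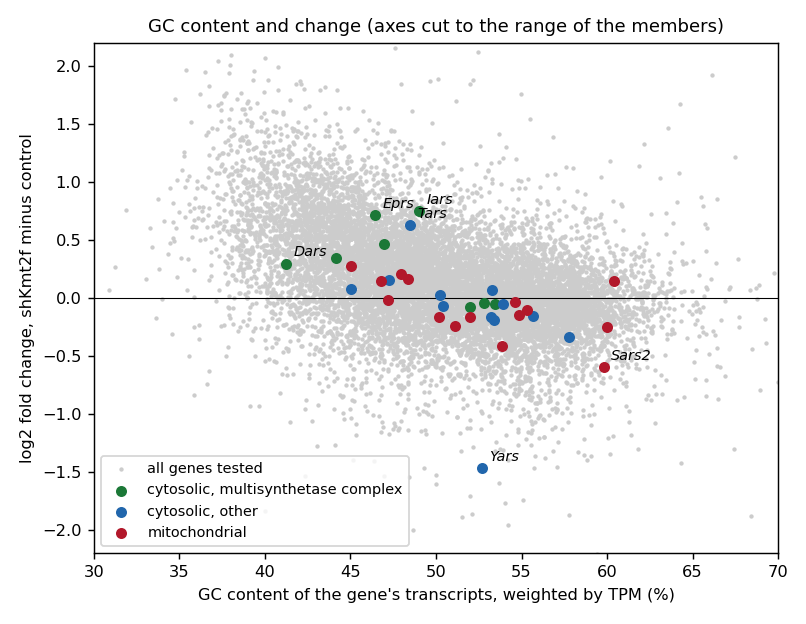
GC content of a gene's transcripts (percent, weighted by TPM) against log2 fold change, for all genes tested (grey) and the 35 synthetase genes (coloured by group). Yars lies at -1.47, far below grey points of similar GC content, Iars at 0.75 lies above the median of its bin (0.08) and Sars2 at -0.60 below that of its bin (-0.08).

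Genes that work beside the synthetases are described with the fit over all genes, in which 14.1% passed, 10.4% higher and 3.69% lower. Their lists were chosen with earlier results of these data known. The counts and adjusted p-values given for them are thus descriptions and no independent support. None of the 3 scaffold genes of the complex passed in limma. Aimp2, at 41.3 ± 1.72 against 30.3 ± 4.00 TPM (log2 fold change -0.44, limma adjusted p = 0.0524), was the nearest to the threshold. Of 11 other genes of tRNA charging, which include the amidotransferase subunits, 2 were higher and 0 lower, with a median of 0.09, and the calls became 0 without control replicate 1 or control replicate 3, 1 without any 1 shKmt2f library and 3 without control replicate 2. Tarsl2, a second cytosolic threonine enzyme, rose from 6.53 ± 1.56 to 14.9 ± 2.64 TPM (a log2 difference of 1.08, limma adjusted p = 0.0159), so both cytosolic threonine genes were higher in every knockdown library than in any control. Sepsecs, which turns phosphoserine on a transfer RNA into selenocysteine, rose from 3.85 ± 1.12 to 6.73 ± 1.04 TPM (limma adjusted p = 0.0484).

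Of the 24 genes listed for the ATF4 program 21 were tested, of which 9 fell and 1 rose, with a median of -0.43, and between 4 and 9 passed when any 1 library was left out (9 without control replicate 2, 7 without shKmt2f replicate 2 and 4 or 5 without any of the others). Phgdh, the first enzyme of serine synthesis, fell from 41.7 ± 2.76 to 15.5 ± 2.71 TPM (limma adjusted p = 0.00482). Pycr1, of proline synthesis, fell from 16.7 ± 2.04 to 6.65 ± 0.977 TPM (limma adjusted p = 0.00845). Asns, the asparagine synthetase, fell from 37.7 ± 3.41 to 19.5 ± 2.78 TPM, and the stress-induced regulator Nupr1 from 52.4 ± 10.4 to 25.4 ± 2.46 TPM (limma adjusted p = 0.0129 for each). Atf4 itself stood at 68.7 ± 7.56 and 65.3 ± 3.50 TPM. Among the synthetases whose promoter window holds TGATGNAA only Yars was lower, while Aars, Gars, Iars and Tars were not. Synthetase genes without a window, most of them cytosolic, were not searched. Of 8 genes for the eIF2 kinases and their partners 0 passed in limma (median 0.32), and of 9 cytosolic elongation factors 0 passed (median 0.06). Without control replicate 2, 1 and 3 of them passed, and 1 scaffold gene.

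Of 32 tRNA maturation genes 2 rose and 2 fell, with a median of 0.03, and these 4 calls became 8 without control replicate 2 and 1 without any other single library. Tsen15, a subunit of the tRNA splicing endonuclease, fell from 39.2 ± 4.48 to 21.6 ± 3.28 TPM (limma adjusted p = 0.0171). The tRNA methyltransferase subunit Trmt6 rose from 13.9 ± 2.71 to 22.4 ± 1.26 TPM and the CCA-adding enzyme gene Trnt1 from 21.2 ± 9.77 to 39.8 ± 2.65 TPM (limma adjusted p = 0.0284 and 0.0370). Around the mitochondrial synthetases, 1 of 14 translation factor genes rose, Lrpprc, from 16.6 ± 7.80 to 31.8 ± 4.60 TPM (limma adjusted p = 0.04997), and 3 were called without control replicate 2 and 0 without any other single library. Of 80 genes with names of mitochondrial ribosomal proteins, 3 of them pseudogenes (Mrps36-ps1, Mrpl23-ps1 and Mrpl48-ps), 5 fell and 0 rose, 1 of the 5 being Mrpl48-ps, with a median of -0.15 beside the -0.11 of the mitochondrial synthetases, and 14 passed without control replicate 2 and 0 without any other single library. Among them Mrps14 fell from 155.5 ± 25.6 to 104.4 ± 9.78 TPM and Mrpl42 from 177.7 ± 14.1 to 131.4 ± 10.2 TPM (limma adjusted p = 0.0330 and 0.0343).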

How the data were processed

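Salmon 0.11.3, sleuth 0.30.0 and build GRCm38.p6 are named by the submitters' processing notes. Each library has its own deposited table of transcripts, in TPM per the file headers. The p-value, q-value and effect columns deposited by the authors, the last on a natural log scale, were identical in all 7 tables and are cited as the authors' deposited table. Rows without TPM (71 of 55475) were dropped, which left 55404 transcripts.

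Gene sums that reached 1 TPM in 3 or more libraries were fitted by group in limma 3.58.1 (R 4.3.3), as log2(TPM + 1) with a trended and robust prior, and p was adjusted over all genes by Benjamini-Hochberg. The same model was fitted to transcripts. It was checked on simulated data. For the longest Setd1a transcript an exact permutation test used log2(TPM + 0.1). Fold changes on this scale understate changes of low genes. Transcript length, GC content and positions came from GENCODE M21 on GRCm38, and shared sequence from blastn 2.17.0, at 90% identity over at least 200 bases and 50% of the other transcript. Depth is unknown from TPM, so no counting interval is given.

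The members, the 8 context lists, the 10 marker lists and the motifs were chosen with earlier results of these data known. Values per library are given for members past the threshold, members whose group ranges do not overlap, the highest and lowest cytosolic and mitochondrial members, and Yars with its transcripts. Up to 4 genes past the threshold are named per context list. Alternatives were median-ratio scaling, another pseudocount and filter, corrections on GC content and length, protein-coding transcripts only, TPM weighted by length, the replicate number as a block, and leaving out each library. Values of some genes that were part of the lists' counts are not reported here.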

Additional observations from a re-analysis of the deposited data

Results flagged for a closer look

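Among 44 groups of 4 knockdown libraries (36 genes and 8 Yars transcripts), 3 held a library far from the rest, where chance flags about 1 in 20 groups. Farsa stood at 109.3 TPM in shKmt2f replicate 2 and at 82.3 to 86.6 TPM in the other 3. Rars2 stood at 57.4 TPM in shKmt2f replicate 4 and at 72.2 to 73.1 TPM in the others. Yars2 stood at 31.6 TPM in shKmt2f replicate 4 and at 43.4 to 45.5 TPM in the others. None of these 3 genes passed the limma threshold.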

How the results depend on the processing

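The values of members below are those the family was chosen on, so they describe how each setting moves them and support nothing. Yars had log2 fold changes between -1.62 and -1.40 over the 16 alternatives. The 3 calls among cytosolic genes became 2 to 4 under the 9 alternatives other than leaving out a library and 1 to 6 when 1 library was left out, the 1 being Yars each time and the 6 arising without control replicate 2. For mitochondrial genes, Sars2 was the only call in each of those 9 except the replicate block, under which there were 0, and leaving out a library gave 0 to 1. Leave-one-out medians ran from -0.08 to 0.10 for cytosolic and from -0.12 to 0.04 for mitochondrial genes, and log2 fold changes of Eprs from 0.50 to 0.95, Iars from 0.55 to 0.89, Sars2 from -0.67 to -0.51, Tars from 0.39 to 0.87, Rars from 0.22 to 0.46, Lars from 0.26 to 0.61, Vars from -0.47 to -0.25 and Lars2 from -0.30 to -0.17. Rars changed sign, to -0.041 with the GC correction and to -0.053 with the GC and length correction, and Eprs lost its call in 5 of the 9. Over all genes, 1755 calls became 282 to 3024 without 1 library and 1283 to 2500 otherwise, and median-ratio scaling, which moved the median of all genes from 0.09 to -0.02, gave 1088 higher calls of 1922 where the values as deposited gave 1295 of 1755. With the GC correction 644 of 1283 calls were higher, and with the GC and length correction 627 of 1298. The 22 context genes called became 14 under the replicate block, 35 with TPM weighted by length, and 5 to 42 without 1 library. All 5 Yars transcripts lost their calls under the replicate block (0 called, with log2 fold changes of -1.63 to -0.87), where only 1 transcript of any gene passed, and 3 to 5 were called without 1 library. The block fits a term for each replicate number, which leaves less to estimate the spread from. It also takes the unpaired shKmt2f replicate 4 out of the contrast, and Iars had 0.81 both under the block and without that library. Same-numbered libraries correlated at r of 0.0793, 0.0651 and 0.0597 in their deviations from the group means across genes. Pairs of different number correlated at -0.169 to 0.0976. These 3 values cannot tell whether same-numbered libraries share more than a number, since deviations within such small groups constrain each other. The labels state no pairing, and shKmt2f replicate 4 has no partner. The cause of the differences between settings was otherwise not tested. With 3 and 4 libraries of unknown depth, members that did not pass cannot be called unchanged. Levels split over short noncoding models depend on how reads were assigned to transcripts.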

Other observations

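The share of a synthetase gene's TPM that the tables list on protein-coding models varied widely, with a median of 46.6% over the 20 cytosolic and 55.0% over the 16 mitochondrial genes. Gars, Hars, Lars, Nars, Aars2 and Mars2 had a single listed transcript and so 100% by construction. At the other end stood Vars2 at 1.26%, Lars2 at 2.27%, Farsb at 14.8%, Yars at 16.6% and Qars at 17.2%. For Qars, 19 transcripts were listed, the most of any member, and its coding models summed to 38.0 TPM (control) and 37.8 TPM (shKmt2f) of a gene sum of 227.9 and 214.2 TPM. For Aars a retained-intron transcript of 426 bases made up 56.6% of the level. Because TPM is scaled for length, a short model holds many TPM from few reads, and the order of the genes by level would differ if only coding models were summed: the median coding level in control was 29.9 TPM for cytosolic and 8.07 TPM for mitochondrial genes.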
